A study of Mus musculus with 18 samples.

Results

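The 10 enzymes described here modify collagen after it has been translated. They are the lysyl oxidases Lox, Loxl1, Loxl2, Loxl3 and Loxl4, the lysyl hydroxylases Plod1, Plod2 and Plod3, and the prolyl 4-hydroxylase alpha subunits P4ha1 and P4ha2. They were chosen by name, and all 10 were found among the 27179 genes of the deposited table and passed the filter on low values, with at least 529 reads in every library for the least abundant of them. RNA was sequenced from 18 cultures of bone marrow-derived mesenchymal stem cells (MSCs), stromal cells that adhere and expand when mouse marrow is plated. Young, old and rejuvenated old MSCs had 6 libraries each. All donors were C57BL6 mice, stated to be male, of 6 weeks for young MSCs and 18 to 24 months for old MSCs, and the labels list no treatment other than co-culture. The labels name alpha-MEM with fetal serum as the medium, while the study's methods describe expansion in a low-serum medium with growth factors, heparin and hydrocortisone, and which of these the sequenced cultures were in was not settled here. Rejuvenated old MSCs were old MSCs kept for 7 days at 100000 cells per well in the same well as young MSCs. A membrane with pores of 0.4 µm, which passes soluble factors but not cells, lay between them. Old MSCs were cultured separately, also for 7 days at 100000 cells per well. The same time and number of cells are recorded for young MSCs. Old MSCs paired with other old MSCs were not analysed here, so the age of the neighbouring cells and their mere presence cannot be told apart. The labels call the libraries of a group biological replicates but do not tie them to separate animals or cultures, so p-values measure only the spread between these libraries.

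Collagen chains are hydroxylated in the endoplasmic reticulum before they fold. Prolyl 4-hydroxylase, made of an alpha subunit and the chaperone P4hb, hydroxylates proline and so makes the collagen helix stable at body temperature, while the lysyl hydroxylases act on lysine and set which kind of crosslink can later form. Both need iron, oxygen, 2-oxoglutarate and ascorbate. Outside the cell the lysyl oxidases, which carry copper, oxidise lysine and hydroxylysine to aldehydes that condense into the crosslinks of collagen and elastin fibres, and so set the stiffness of the matrix around stromal cells. Several of these genes, among them P4ha1, P4ha2, Plod2, Lox and Loxl2, are textbook targets of the hypoxia-inducible factors.

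In old MSCs co-cultured with young MSCs, both prolyl 4-hydroxylase subunits rose, as did Plod2, Plod3, Lox and Loxl2, while Plod1, Loxl3 and Loxl4 fell. Loxl1 was not called. Loxl2 and P4ha2 had the highest rises, 1.49-fold and 1.46-fold in the ratio of group means. Between young and old MSCs the differences also ran both ways, and were larger than in co-culture for 8 of the enzymes and smaller for P4ha1 and Lox, with Plod1 and Loxl4 more than 2-fold higher in young MSCs and Loxl1 at 0.197 of its old level. Values are normalized counts, the reads of a gene divided by 1 size factor per library, and a differentially expressed gene (DEG) is one with an adjusted p under 0.05 in limma on log2(normalized count + 1), adjusted by the Benjamini-Hochberg method over the 14353 genes tested. Of the 10 enzymes, 9 were DEGs of rejuvenated old against old MSCs, where 41.6% of all genes tested were. Of these, 6 were higher, against 21% of all genes, and 3 were lower, against 20.6%. The 6 rejuvenated old and 6 old libraries did not overlap for 6 of the enzymes, against 22% of all genes.

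**Figure D1:**
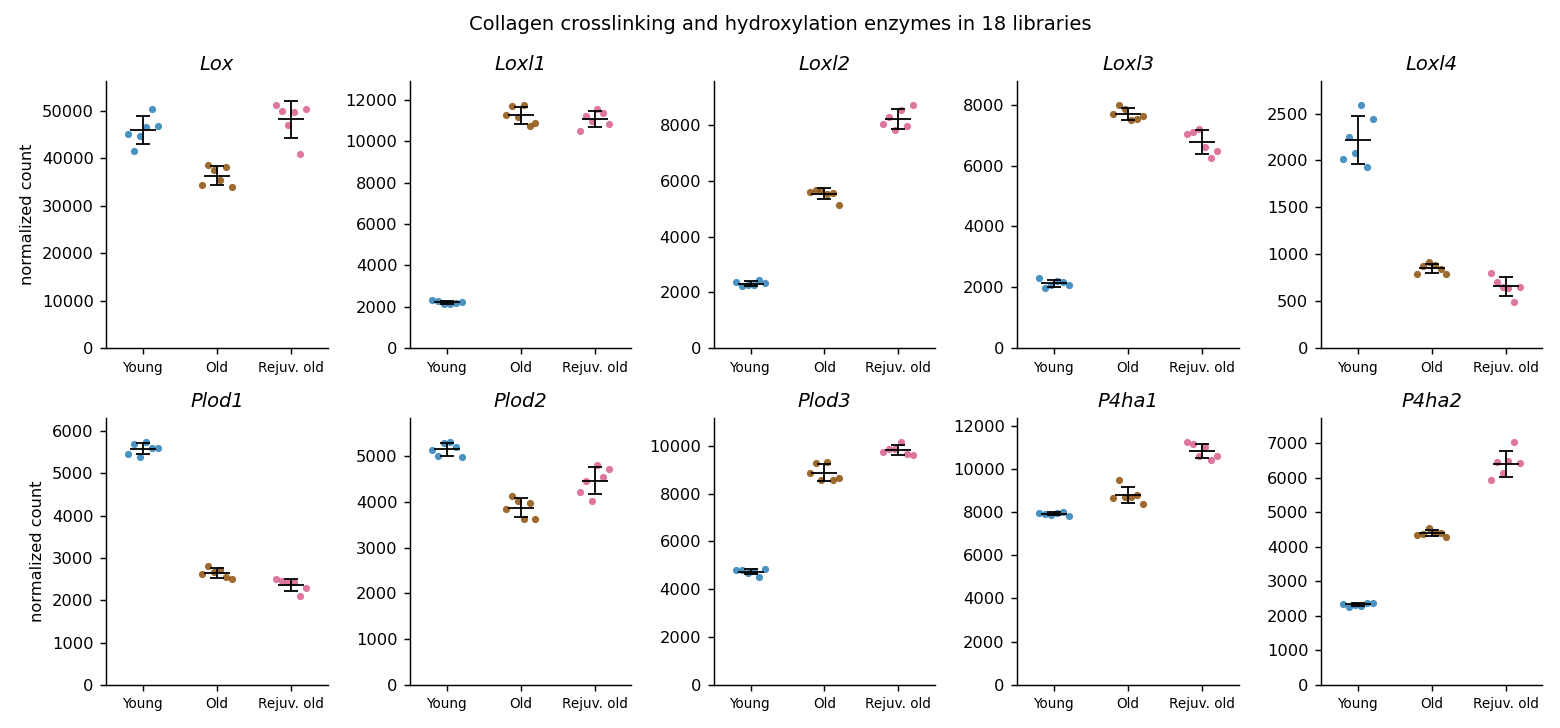
Normalized count (vertical axis, starting at 0, own scale for each gene) of the 10 enzymes in the 6 young, 6 old and 6 rejuvenated old MSC libraries. Points are libraries, and bars give the mean and SD. Loxl1, Loxl2, Loxl3, Plod3, P4ha1 and P4ha2 are lowest in young MSCs and Plod1, Plod2 and Loxl4 are highest there, while Lox is lowest in old MSCs.

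The library totals ran from 22936251 to 29559194 reads. The stromal genes Pdgfra, Pdgfrb, Cd44, Ly6a, Itgb1 and Col1a1 were measured in all groups, with the lowest group mean at 2137 for Cd44 in young MSCs. Other defining markers were not shared by the groups. Eng had a mean of 163 in young and 7340 in old MSCs, Thy1 and Nt5e had means of 1.19 and 15.9 in old MSCs, and Cd34, a marker used to exclude cells, had a mean of 7006 in young and 23.1 in old MSCs. Rejuvenated old replicate 1 stood apart in genes that were high in young MSCs, with 402 normalized counts of Cd34 beside 24.2 to 41.9 in the remaining 5, 21.6 of Thy1 beside 0 to 0.951 and 31.9 of Col11a1 beside 2.90 to 10.5. Mfap4 and Lum, also high in young MSCs, were at 2.06 and 0 in it and at most 3.81 and 0.966 in the others. These 5 genes were chosen after their values were seen, and what sets this library apart was not tested. Without it, 9 of the 10 enzymes were again called in co-culture in the same directions, with log2 fold changes from -0.44 for Loxl4 to 0.58 for Loxl2, and Loxl1 was at -0.01 (adjusted p = 0.865). Markers of other cell types also moved with age. All 12 macrophage markers were lower in young MSCs, with a summed level of 925 to 1038 in young, 15771 to 19836 in old and 15857 to 19321 in rejuvenated old libraries, and Ptprc and Adgre1 were at 0 in young MSCs. All 6 osteoblast, 3 chondrocyte and 5 adipocyte markers tested were lower in young than in old MSCs, where 44.1% of all genes tested were lower and 41.6% were higher. Of the endothelial markers, the 2 tested were higher in young MSCs, among them Kdr, with a mean of 85.7 beside 9.12 in old MSCs, and in co-culture Kdr fell by 0.91 to a mean of 4.32. The 4 Y-linked genes tested had means of at most 0.521 in young and of at least 632 in old and 592 in rejuvenated old MSCs. The young values are at odds with the statement that the donors were male. Any difference in sex or origin of the young MSCs runs with age here. In comparisons with young MSCs it cannot be told apart from age. In co-culture 1 macrophage marker rose and 1 fell of 12, 3 adipocyte markers rose and 1 fell of 5, 2 chondrocyte markers rose and 1 fell of 3, and 1 osteoblast marker rose and 4 fell of 6. Of all genes tested, 21% rose and 20.6% fell in co-culture. The part of these differences in the results below was not tested. In bulk libraries, fewer cells of a type and less RNA per cell cannot be told apart.

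P4ha1 encodes the alpha subunit that is the usual main form of prolyl 4-hydroxylase. Its gene lies on chromosome 10 (chr10:59323197-59373304, mm10). In old MSCs P4ha1 ran from 8358 to 9500 with a median of 8703 (mean 8790 ± 380, SD, n = 6), and in rejuvenated old MSCs from 10415 to 11250 with a median of 10806 (10840 ± 342, SD, n = 6). Every rejuvenated old library lay above every old library. This was a rise of 0.30 on the log2 scale (SE 0.029, adjusted p = 2.67e-08). In young MSCs the level ran from 7835 to 8027 with a median of 7942, below both other groups and with the narrowest spread of any enzyme in any group, a coefficient of variation of 0.91%, where counting error alone gives up to 1.19%. The difference of young from old MSCs was small, -0.15 (SE 0.029, adjusted p = 7.33e-05), and was -0.07 when all libraries were scaled to the same total (adjusted p = 0.0213). Young lay 0.45 below rejuvenated old MSCs on the same scale (adjusted p = 1.37e-12).

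P4ha2, the alternative alpha subunit, lies on chromosome 11 (chr11:54100924-54131668). It had a median of 2325 in young MSCs (2264 to 2384), 4385 in old MSCs (4293 to 4537) and 6439 in rejuvenated old MSCs (5928 to 7040). The 3 groups did not overlap, and the level stepped up from young to old to rejuvenated old MSCs. On the log2 scale the change was 0.54 for rejuvenated old against old MSCs (95% confidence interval 0.48 to 0.61, adjusted p = 1.14e-11), -0.91 for young against old (adjusted p = 1.56e-17) and -1.46 for young against rejuvenated old MSCs (adjusted p = 2.3e-21). Rejuvenated old replicate 5, at 7040, was the highest, and without it the rise was 0.52.

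P4ha2 therefore moved more than P4ha1 in each comparison, and this was tested on the ratio of the transcripts within a library, on which the size factor has no effect, with a two-sided exact permutation test over the 924 splits of 6 against 6 libraries. Its smallest possible p is 0.00216, or 0.00278 after adjustment over 27 such tests. P4ha1 was 3.41 times P4ha2 in the median young library, 1.99 times in old and 1.71 times in rejuvenated old MSCs, in normalized counts without regard to length. The log2 ratio differed by -0.24 between rejuvenated old and old MSCs, by 0.77 between young and old and by 1.01 between young and rejuvenated old MSCs, each with an exact permutation adjusted p = 0.00278. Per kilobase of exon, with a length of 4114 bases for P4ha1 and 2339 for P4ha2, P4ha1 stood at 1928 ± 18 (SD, n = 6) and P4ha2 at 996 ± 20.5 in young MSCs, while in rejuvenated old MSCs they stood at 2635 ± 83.0 and 2743 ± 161 and overlapped. P4ha3, the remaining alpha subunit, was the lowest of the family per kilobase in each group, with a rise of 0.11 in co-culture (adjusted p = 0.0132). The summed level of the 3 subunits per kilobase was 3325 ± 49.6 for young, 4639 ± 109 for old and 6054 ± 134 for rejuvenated old MSCs (SD, n = 6), without overlap. P4hb, which the alpha subunits need as partner, had 19408, 18071 and 17570 normalized counts in young, old and rejuvenated old MSCs, and its difference in co-culture of -0.04 was not called (adjusted p = 0.375).

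The promoter windows of P4ha1, P4ha2 and Plod3 are shown, the 3 enzymes with a window used here that rose in co-culture. These windows were searched for the core of the hypoxia response element. They come from RefSeq on GRCm38.p6, run 5′ to 3′ on the strand of the gene, and hold 250 bases before and 50 after an annotated start. The windows span chr10:59323046-59323345 on the plus strand for P4ha1, chr11:54100674-54100973 on the plus strand for P4ha2 and chr5:136986769-136987068 on the plus strand for Plod3. The start used for P4ha1 lies 99 bases inside the annotated gene. Capitals mark ACGTG and GCGTG, the forms of the core, read on either strand, so that the reverse strand shows as CACGT or CACGC.
P4ha1: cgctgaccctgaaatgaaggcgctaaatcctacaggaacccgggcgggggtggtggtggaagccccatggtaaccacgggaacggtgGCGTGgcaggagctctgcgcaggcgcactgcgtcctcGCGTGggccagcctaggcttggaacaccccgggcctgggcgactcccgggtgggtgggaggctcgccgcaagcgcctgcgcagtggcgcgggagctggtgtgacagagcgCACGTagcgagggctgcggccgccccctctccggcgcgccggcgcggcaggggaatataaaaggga
P4ha2: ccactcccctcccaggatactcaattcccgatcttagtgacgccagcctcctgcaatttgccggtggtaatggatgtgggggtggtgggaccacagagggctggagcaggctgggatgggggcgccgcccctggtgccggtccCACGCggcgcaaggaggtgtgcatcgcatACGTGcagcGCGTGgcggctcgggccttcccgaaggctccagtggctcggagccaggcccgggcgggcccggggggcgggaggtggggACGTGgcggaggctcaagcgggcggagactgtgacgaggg
Plod3: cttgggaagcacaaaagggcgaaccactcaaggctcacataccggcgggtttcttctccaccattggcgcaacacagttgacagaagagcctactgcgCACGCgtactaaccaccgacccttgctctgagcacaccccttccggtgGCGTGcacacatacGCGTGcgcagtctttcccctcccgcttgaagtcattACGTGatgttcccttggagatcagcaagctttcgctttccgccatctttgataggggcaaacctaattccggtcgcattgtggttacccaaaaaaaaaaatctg
With the first transcribed base counted as 0 and the first base of a match given, P4ha1 held ACGTG at -16 and GCGTG at -163 and -126. P4ha2 held ACGTG at -78 and 10 and GCGTG at -107 and -69. Plod3 held ACGTG at -54 and GCGTG at -152, -104 and -90. Windows were on hand for 5 of the 10 enzymes, and the other 2 of these 5 held no ACGTG, with GCGTG at 2 places in Plod1 and at 1 place in Loxl4. Of all 32851 windows in the table, 19.6% held ACGTG, 32.4% held GCGTG and 43.8% held either. A match is a description of these letters and not a site of binding. The windows shown were picked by direction of change, and a link between matches and direction was not tested.

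Plod1 hydroxylates lysines within the collagen helix. Its gene is on chromosome 4 (chr4:147909753-147936776). It ran from 5399 to 5744 in young MSCs (median 5606), from 2495 to 2802 in old MSCs (median 2643) and from 2110 to 2499 in rejuvenated old MSCs (median 2428). Young libraries were all far above the others, 2.11-fold over old MSCs in the ratio of means, while rejuvenated old replicate 1, at 2499, lay above the lowest old library, at 2495. The log2 fold change was 1.08 for young against old (SE 0.038, adjusted p = 1.04e-17) and -0.16 for rejuvenated old against old MSCs (SE 0.038, adjusted p = 0.00166). The fall in co-culture was -0.13 without rejuvenated old replicate 5, the lowest of its group.

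Plod2 hydroxylates lysines in the telopeptides at the ends of collagen and so favours the more stable crosslinks found in bone and in fibrosis. The gene, on chromosome 9 (chr9:92539636-92608428), shares 346 exonic bases with an uncharacterised transcript of the opposite strand. It had a median of 3915 in old MSCs (3633 to 4141), 4508 in rejuvenated old MSCs (4027 to 4810) and 5173 in young MSCs (4981 to 5316). Young MSCs lay above both other groups, and the lowest rejuvenated old library, replicate 3, fell within the range of the old libraries. The rise in co-culture was 0.20 (SE 0.042, adjusted p = 0.000444), and young MSCs lay 0.41 above old (adjusted p = 3.4e-09) and 0.21 above rejuvenated old MSCs (adjusted p = 7.25e-05).

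Plod3 hydroxylates lysine and also adds sugars to hydroxylysine. Its gene is on chromosome 5 (chr5:136987019-136996646), and 529 of its exonic bases also belong to Znhit1 on the opposite strand. The strand setting is not stated, so how reads from that stretch were counted is not known. The level of Plod3 is given with this limit. Plod3 had a median of 4776 in young (4531 to 4830), 8770 in old (8567 to 9320) and 9812 in rejuvenated old MSCs (9608 to 10160). The 3 groups did not overlap. The change on the log2 scale was 0.15 in co-culture (SE 0.028, adjusted p = 0.00023) and -0.91 for young against old MSCs (adjusted p = 1.01e-18).

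Per kilobase of exon the 3 transcripts added to 4380 ± 49.8 for young, 4484 ± 146 for old and 4854 ± 115 for rejuvenated old MSCs (SD, n = 6), and the young and old ranges overlapped, while the old libraries, at 4313 to 4724, lay below the rejuvenated old libraries, at 4756 to 5066. Plod1, Plod2 and Plod3 each made up about the same part of this sum in young MSCs, at 35.3%, 31.7% and 32.9%. In old MSCs Plod3 made up 60.4% and Plod1 16.3%, and in rejuvenated old MSCs 61.7% and 13.5%. The ratio of Plod2 to Plod1, the telopeptide over the helical enzyme, had a median of 0.928 for young, 1.47 for old and 1.90 for rejuvenated old MSCs. The log2 ratio rose by 0.36 in co-culture and was 0.67 lower in young than in old MSCs, with a difference of -0.67 (exact permutation test, adjusted p = 0.00278 for both). The ratio of Plod2 to Plod3 was 1.32 higher in young than in old MSCs on the log2 scale (exact permutation adjusted p = 0.00278), and its difference in co-culture of 0.06 did not pass the test (exact permutation p = 0.342, adjusted p = 0.369).

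**Figure D2:**
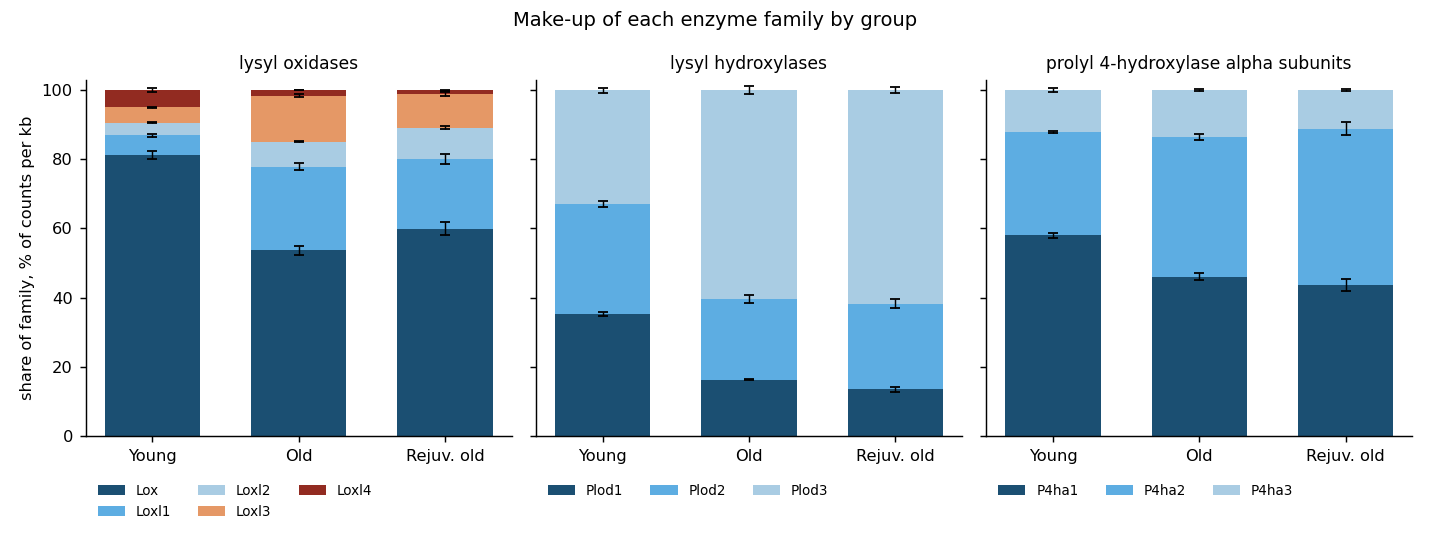
Share of each family's summed counts per kilobase of exon (vertical axis, %) held by each member in young, old and rejuvenated old MSCs, stacked to 100% with the mean of 6 libraries per group, and the SD of each share as a bar at its upper edge. Lox takes 81.2% of its family in young and 53.7% in old MSCs, and Plod3 takes 32.9% and 60.4% of its family.

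Lox is the founding lysyl oxidase and crosslinks fibrillar collagen and elastin. Its gene is on chromosome 18 (chr18:52516060-52529867). It was the most abundant of the 10 enzymes in every group, also per kilobase, and ran from 41634 to 50449 in young MSCs (median 45900), from 33979 to 38673 in old MSCs (median 36456) and from 40918 to 51191 in rejuvenated old MSCs (median 49841). No old library reached the level of any young or rejuvenated old library, and these last groups overlapped. Lox rose by 0.41 in co-culture (SE 0.054, adjusted p = 2.55e-06), and young MSCs lay 0.34 above old MSCs (SE 0.054, adjusted p = 4.17e-06). Between young and rejuvenated old MSCs the difference was -0.07 with a 95% confidence interval of -0.18 to 0.04, and it was not called (adjusted p = 0.236). Rejuvenated old replicate 5, at 40918 against 47084 to 51191 in the other 5 libraries, set the lower end of that group, and without it the difference was -0.11 and was called (adjusted p = 0.023).

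Loxl1 is tied to elastic fibres through fibulin-5. It lies on chromosome 9 (chr9:58287723-58313212). It ran from 2119 to 2329 in young (median 2214), from 10769 to 11749 in old (median 11233) and from 10485 to 11565 in rejuvenated old MSCs (median 11094). Old and rejuvenated old libraries shared nearly the same range, and the difference in co-culture was -0.02 with a 95% confidence interval of -0.09 to 0.04 (adjusted p = 0.587). Young MSCs differed from old MSCs by -2.34 on the log2 scale (SE 0.032, adjusted p = 2.93e-25), the widest gap of the 10 enzymes in that comparison.

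Loxl2 crosslinks collagen including the type IV collagen of basement membranes. It lies on chromosome 14 (chr14:69608692-69695834) and shares 301 exonic bases with an antisense transcript. It had a median of 2306 in young (2221 to 2433), 5587 in old (5149 to 5687) and 8153 in rejuvenated old MSCs (7823 to 8709). As for P4ha2, the 3 groups did not overlap and the level stepped up from young to old to rejuvenated old MSCs. On the log2 scale the change was 0.57 in co-culture (95% confidence interval 0.50 to 0.64, adjusted p = 5.63e-12), -1.26 for young against old (adjusted p = 4.07e-20) and -1.83 for young against rejuvenated old MSCs (adjusted p = 3.89e-23).

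Loxl3, a lysyl oxidase needed in cartilage and palate development, lies on chromosome 6 (chr6:83034205-83052566) and shares 535 exonic bases with Htra2 on the opposite strand. It had a median of 2119 in young (1983 to 2313), 7659 in old (7513 to 7985) and 6841 in rejuvenated old MSCs (6250 to 7218). Its groups did not overlap either, but here the rejuvenated old libraries lay below the old ones, with a log2 fold change of -0.18 (SE 0.039, adjusted p = 0.000552). Young MSCs lay at -1.85 from old MSCs (adjusted p = 5.96e-22).

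Loxl4, the least abundant lysyl oxidase in old MSCs, lies on chromosome 19 (chr19:42592279-42612806). It ran from 1926 to 2587 in young (median 2165), from 789 to 913 in old (median 858) and from 493 to 805 in rejuvenated old MSCs (median 653). Young libraries were all above the rest, by 1.38 on the log2 scale over old (adjusted p = 6.34e-13) and by 1.76 over rejuvenated old MSCs (adjusted p = 6.82e-15). Loxl4 fell by 0.38 in co-culture (SE 0.086, adjusted p = 0.00117), although rejuvenated old replicate 1 stayed within the old range at 805. It had the largest relative spread of the enzymes, with a coefficient of variation of 15.4% in rejuvenated old MSCs, and the fall was 0.30 without replicate 5 and 0.44 without replicate 1 (differences of -0.30 and -0.44).

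Within the lysyl oxidase family, Lox alone made up 81.2% ± 1.04 (SD, n = 6) of the counts per kilobase in young MSCs, 53.7% ± 1.29 in old and 60.0% ± 1.88 in rejuvenated old MSCs. Loxl1 made up 5.71%, 24.2% and 20.1%, Loxl3 4.41%, 13.3% and 9.86%, Loxl2 3.62%, 7.23% and 9.07%, and Loxl4 5.02%, 1.60% and 1.04%. The family total per kilobase was 11825 ± 613 for young, 14149 ± 522 for old and 16803 ± 861 for rejuvenated old MSCs (SD, n = 6). The median library held 20.8 times as many normalized counts of Lox as of Loxl1 in young MSCs, 3.21 times in old and 4.38 times in rejuvenated old MSCs. The log2 ratio of Lox to Loxl1 was higher by 0.43 in co-culture and by 2.68 in young than in old MSCs (exact permutation test, adjusted p = 0.00278 for both). The log2 ratio of Lox to Loxl2 moved by -0.17 in co-culture (exact permutation adjusted p = 0.00508), since Loxl2 rose more than Lox. The log2 ratio of Loxl3 to Loxl4, each of which fell, moved by 0.19 (exact permutation adjusted p = 0.0292), and this call was lost when old replicate 3, 4 or 5 or rejuvenated old replicate 3 or 5 was left out, with values of 0.14 to 0.19. In young against old MSCs that ratio differed by -3.23 (exact permutation adjusted p = 0.00278), the widest of the ratios tested.

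**Figure D3:**
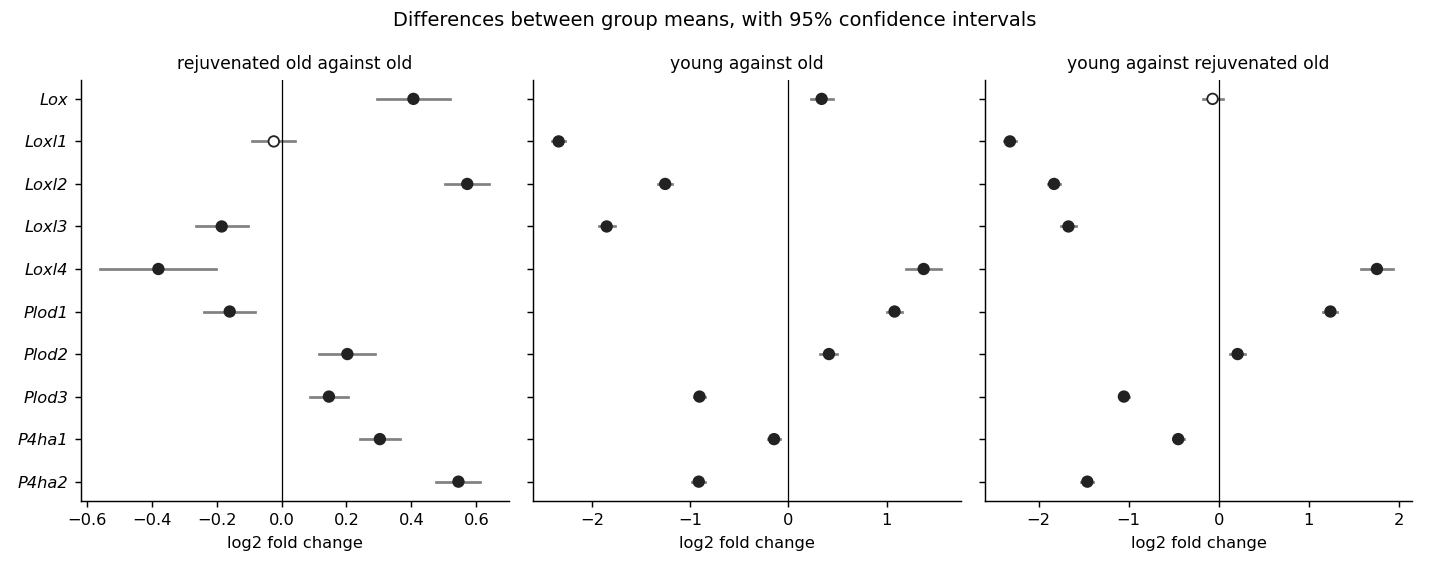
Log2 fold change (horizontal axis, own scale for each panel) of the 10 enzymes in the 3 comparisons, as points with 95% confidence intervals, filled where the adjusted p was under 0.05 and open elsewhere. Open points are Loxl1 for rejuvenated old against old MSCs and Lox for young against rejuvenated old MSCs.

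The comparison of young with old MSCs called all 10 enzymes, where 85.7% of all genes tested were called. Plod1, Plod2, Lox and Loxl4 were higher in young MSCs, 4 of 10 against 41.6% of all genes, and the other 6 were lower, against 44.1%. The libraries of the groups did not overlap for any of the 10, against 73.9% of all genes. Young against rejuvenated old MSCs called 9 of 10, against 85.6%, with 3 higher against 41.5%, 6 lower against 44.1%, and 9 without overlap against 70.5%. With so many genes called, these counts lie near the background. The median absolute log2 fold change of the enzymes was 1.00 for young against old MSCs and 1.35 for young against rejuvenated old MSCs, beside 0.60 and 0.58 over all genes tested. In co-culture it was 0.25, beside 0.15 over all genes, and the signed median was 0.17, beside 0.01. The comparisons share libraries, so their values for 1 gene are not independent of each other.

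Ordered by level per kilobase, Lox came first in all 3 groups. In young MSCs it was followed by P4ha1 at 1928, Plod1 at 1548, Plod3 at 1443 and Plod2 at 1389, of which Plod3 and Plod2 overlapped, and by P4ha2 at 996. The lower end in young MSCs was held by Loxl1, Loxl4 and Loxl3, whose neighbours overlapped in turn at 673, 592 and 521, and by Loxl2 at 428. In old MSCs Loxl1 came next to Lox at 3416, then Plod3 at 2708 and P4ha1 at 2137, with Loxl3 and P4ha2 overlapping at 1880 and 1878, Plod2 and Loxl2 overlapping at 1045 and 1023, and Plod1 and Loxl4 last at 732 and 227. The order in rejuvenated old MSCs was Lox, Loxl1, Plod3, P4ha2, P4ha1, Loxl3, Loxl2, Plod2, Plod1 and Loxl4, in which Plod3 and P4ha2, P4ha2 and P4ha1, and Loxl3 and Loxl2 overlapped. The levels per kilobase depend on the annotated exons of GENCODE and not on the isoforms that the cells used.

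Of the 11 fibrillar collagens tested, the substrates of these enzymes, 1 rose and 4 fell in co-culture, with a median log2 fold change of -0.05. Col1a1, a chain of type I collagen, had group means of 99171 for young, 109095 for old and 81975 for rejuvenated old MSCs, and fell by 0.41 in co-culture. Col1a2, the other chain, had means of 171857, 104079 and 80335 and fell by 0.38. Col3a1 was not called, at 0.08 (adjusted p = 0.0863), while Col2a1, the cartilage collagen, was the member that rose, by 0.62 from a mean of 1724 to 2652. The ratios of enzyme counts to Col1a1 counts, taken without regard to length, therefore changed in co-culture. The ratio of P4ha1 to Col1a1 had a median of 0.0802 in young and 0.0809 in old MSCs, a log2 difference of -0.01 (exact permutation p = 0.861), against -0.87 with Col1a2 and 0.59 with Col3a1 (exact permutation adjusted p = 0.00244 and 0.00254), and of 0.132 in rejuvenated old MSCs, a rise of 0.72. The ratio of Plod2 to Col1a1 rose by 0.62, to a median of 0.0551 beside 0.0515 in young MSCs, and young and rejuvenated old MSCs differed by -0.06 in its log2 value (exact permutation p = 0.433). The nearness depended on the collagen, since with Col1a2 and Col3a1 in its place, chosen after seeing the data, the difference was -0.89 and 1.03 (exact permutation adjusted p = 0.00244 and 0.00254). The ratio of Lox to Col1a1 rose by 0.82, to a median of 0.590, which passed the young median of 0.468 with a log2 difference of young from rejuvenated old MSCs of -0.34 (exact permutation adjusted p = 0.00508), against -1.17 with Col1a2 and 0.75 with Col3a1. Each rise in co-culture had an exact permutation adjusted p = 0.00278, and none of the ratios with Col1a1 overlapped between old and rejuvenated old libraries. With Col1a2 the rises in co-culture were 0.68, 0.58 and 0.79 for P4ha1, Plod2 and Lox, and with Col3a1 they were 0.22, 0.12 and 0.32. Of the differences of young from old and from rejuvenated old MSCs in these ratios, 4 that were called with Col1a1 were called in the opposite direction with one of these collagens.

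**Figure D4:**
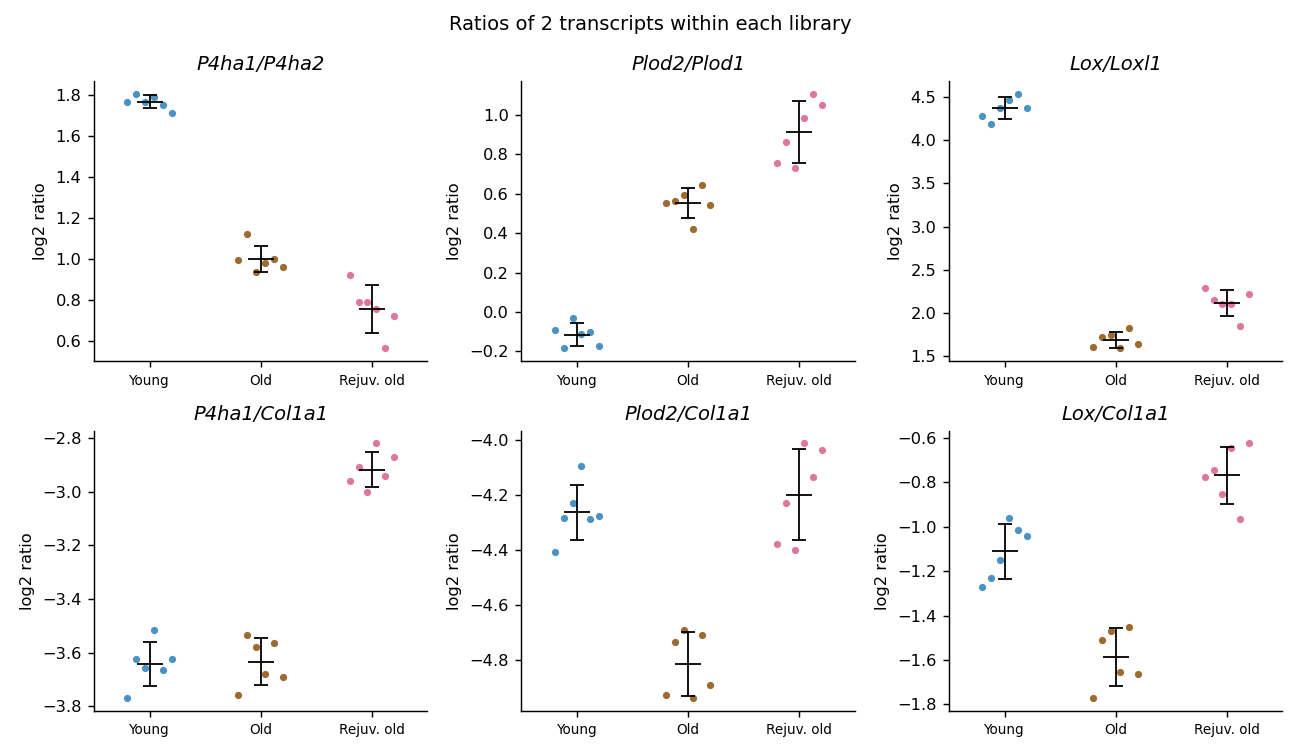
Log2 ratio of 2 transcripts within each library (vertical axis, own scale for each pair) for 6 pairs in young, old and rejuvenated old MSCs. Points are libraries and bars give the mean and SD. The ratios to Col1a1 of P4ha1, Plod2 and Lox lie higher in all 6 rejuvenated old libraries than in all 6 old libraries.

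The remaining genes of the pathway were taken from lists written by hand, and their counts stand beside 21% of all genes higher and 20.6% lower in co-culture and a median of 0.01. Of 15 other genes for collagen hydroxylation, glycosylation and folding, 8 rose and 2 fell in co-culture, with a median of 0.11. The prolyl 3-hydroxylase P3h2 rose by 0.80 from a mean of 109 to 192 and stood at 686 in young MSCs, and Serpinh1, the collagen chaperone HSP47, rose by 0.11 (adjusted p = 0.00847). Of 9 genes for procollagen export none rose and 2 fell, and of 8 for procollagen processing none rose and 4 fell, among them Pcolce2, an enhancer of the C-proteinase, by 0.60 from 506 to 335. Bmp1, which cleaves both procollagen and the propeptide of Lox, had a difference of -0.07 and was not called (adjusted p = 0.32).

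Of 11 partners of the lysyl oxidases in the matrix, 4 rose and 3 fell in co-culture. Fbln5, the fibulin that brings Loxl1 to elastic fibres, rose by 0.83 from a mean of 3338 to 5951, with 3228 in young MSCs. Dcn, a proteoglycan on collagen fibrils, rose by 0.60 from 269 to 408, while young MSCs had 5040. Postn, the matricellular protein periostin, fell by 1.00 from 6537 to 3277, with 592 in young MSCs. Of 5 genes that deliver copper, the cofactor of the lysyl oxidases, none rose and 4 fell. Among these was Atp7a, the pump that loads the lysyl oxidases, named here after its values were seen. Atp7a fell by 0.46 from a mean of 655 to 477, with 854 in young MSCs. Of 7 genes for ascorbate supply 2 rose and 2 fell. Slc2a1, which was among those that rose, is also on the list of hypoxia targets below. Slc23a2, the main ascorbate carrier of such cells, fell by 0.74 from 2407 to 1453, with 1004 in young MSCs.

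Hypoxia targets without any of the 10 enzymes rose together in co-culture, 22 of 25 with 2 lower and a median of 0.95. Pgk1 and Pfkl, enzymes of glycolysis, rose by 1.25 and 1.00, and Pdk1, which turns pyruvate away from mitochondria, by 1.13. In young against old MSCs 19 of these 25 were higher and 5 lower, with a median of 0.96, and both comparisons share the old libraries. Of all genes tested, 41.6% were higher and 44.1% lower there. Among the enzymes named above as such targets, Lox and Plod2 were higher in young MSCs, at 0.34 and 0.41. P4ha1, P4ha2 and Loxl2 were lower, at -0.15, -0.91 and -1.26. Of 8 factors that form or control the hypoxia response, 2 rose and 3 fell, and these 2, the oxygen-sensing prolyl hydroxylases Egln1 and Egln3, are also on the list of targets. They rose by 0.95 and 2.37, Egln3 from a mean of 59.4 to 313. Hif1a, the regulated subunit, fell by 0.29 (adjusted p = 0.00304), and Epas1, the related subunit, named here after its values were seen, had a mean of 61.1 in young and 7351 in old MSCs. The oxygen level of the cultures was not measured in these libraries, and its part in the rises of the enzymes was not tested.

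Genes of TGF-beta signalling, a known inducer of lysyl oxidases, were lower in co-culture in 12 and higher in 3 of 19, with a median of -0.22. Tgfb1 fell by 0.22, Tgfb2 by 0.60 and Tgfbi, a secreted target, by 0.53. The 3 that rose, named here after their values were seen, were Ctgf, Tagln and Smad7, by 0.29, 0.28 and 0.26. Postn, Fn1 and Col1a1 are on this list and on another of the lists above, so the counts are not independent.

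**Figure D5:**
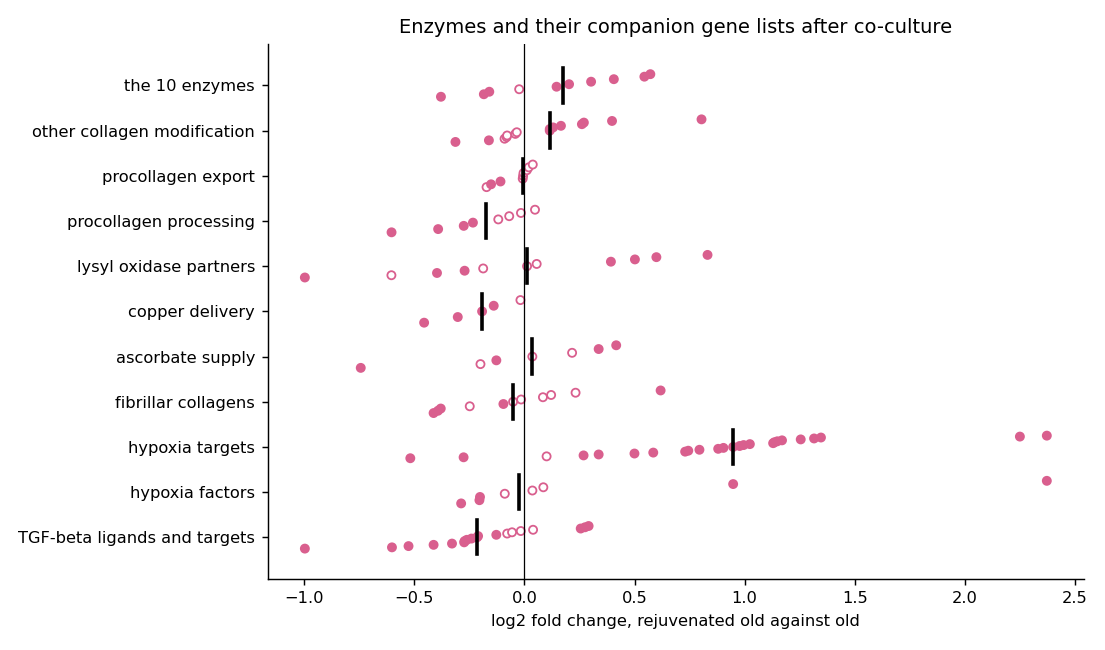
Log2 fold change of rejuvenated old against old MSCs (horizontal axis) for the 10 enzymes and for the tested genes of 10 companion lists. Each point is a gene, filled where the adjusted p was under 0.05, and the black line is the median. The hypoxia targets have a median of 0.95 and the 10 enzymes one of 0.17.

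For Lox, Plod2 and P4ha1 the 3 genes whose log2 levels followed them most closely over the 18 libraries were found by Pearson r, as a description. For Lox these were Steap2, Uba3 and Epb41l2 (r = 0.939, 0.937 and 0.929), and for Plod2 they were Ogn, Marcks and Pmp22 (r = 0.962, 0.954 and 0.945). For P4ha1 they were Gpr35, Arf6 and Ly6c1 (r = 0.985, 0.977 and 0.976). The libraries fall into 3 groups and share their size factors with both genes of a pair, so these values mostly describe the order of the group means. Gpr35, for instance, had means of 88.0 for young, 154 for old and 553 for rejuvenated old MSCs, and so the same order as P4ha1.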

How the data were processed

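RNA of 18 MSC cultures was sequenced as stranded, poly(A)-selected libraries. According to the labels and methods, the authors used HISAT2 for alignment to mm10, then StringTie and featureCounts for counting, and DESeq2 for normalization. Versions, annotation and strand setting are not given in the sources used here. The deposited signal per gene is a read count divided by 1 size factor per library, and 100% of values gave whole reads within 0.01 of a read. The main test was limma 3.58.1 (R 4.3.3) on log2(normalized count + 1), in 1 fit of the 3 groups with a variance trend, for genes with a mean of at least 10, since the deposited values are not raw counts. This scale understates changes of low genes. Scaled values cannot show a change in total RNA per cell. DESeq2 1.42.0 and edgeR 4.0.16 on the recovered reads were alternatives. Ratios were tested by exact permutation, with every split enumerated in Python 3.11.15 with NumPy 2.4.6. Exon lengths came from the GENCODE basic annotation of GRCm38, and positions and promoters from RefSeq.

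The deepest library had 1.29 times the reads of the shallowest, and counting error alone gives a coefficient of variation of at most 4.35% for an enzyme (Loxl4, in the library with fewest of its reads). It covers counting only, since the reads carry no molecular identifiers. The gene-wise tests were also run on simulated counts in which few genes changed, in rejuvenated old MSCs only, and young and old MSCs did not differ. That setting is unlike these data, where 41.6% to 85.7% of genes were called. It therefore lends no support to the calls here. The 10 enzymes and all lists were chosen with earlier results of these data known. Named genes are the enzymes, for each list up to 3 DEGs of the co-culture comparison that moved by 0.5 or more on the log2 scale and had the lowest adjusted p, 9 further genes fixed by name, and the 3 nearest neighbours by correlation of Lox, Plod2 and P4ha1, passing over predicted genes. Genes named otherwise were chosen after their values were seen. Alternatives covered pseudocounts of 0.5 and 10, the filter on low values, scaling, a replicate block, a prior variance without a trend, fits of 2 groups, an adjusted p under 0.01 and leaving out each library. Ratios to Col1a2 and Col3a1 were added after seeing the data. Protein sequences were not used here.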

Additional observations from a re-analysis of the deposited data

Results flagged for a closer look

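Among the 30 sets of 6 values formed by the 10 enzymes in 3 groups, 1 library stood apart by Dixon's criterion, where chance gives about 1 in 20 sets. Loxl2 in old replicate 6 had a normalized count of 5149, below the range of 5517 to 5687 of the other 5 old libraries, with a gap of 0.684 of the whole range, above the limit for 6 values. Without this library the rise of Loxl2 in co-culture was 0.55 on the log2 scale. Old replicate 6 was the lowest old library for 7 of the 10 enzymes, and old replicate 2 was the highest for 6. Among rejuvenated old libraries, replicates 1 and 5 were each the highest or lowest for 6 enzymes.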

How the results depend on the processing

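Under each of the 31 alternatives to the main fit, 9 enzymes were called for rejuvenated old against old MSCs and 10 for young against old MSCs. For young against rejuvenated old MSCs 9 were called in each, except without rejuvenated old replicate 5, where Lox was added to make 10. No called enzyme changed direction. The count of all genes called for rejuvenated old against old MSCs ran from 4287 (adjusted p under 0.01) to 6345 (DESeq2), beside 5971. In proportion to its size, the called enzyme value that moved most was P4ha1 in young against old MSCs. Scaling all libraries to the same total brought it to -0.07, still called. This scaling also turned the uncalled difference of Lox between young and rejuvenated old MSCs to 0.02. Of 423 alternative values of the ratios, 408 kept their side of the threshold, and their direction where the ratio was called. Uncalled ratios could change sign within these 408. That of P4ha1 to Col1a1 in young against old MSCs ran from -0.03 to 0.02 on leaving out single libraries. Replacing Col1a1, a choice made after seeing the data, changed 8. With Col1a2 the log2 ratio of P4ha1 differed by -0.87 and those of Plod2 and Lox by -0.31 and -0.39 between young and old MSCs, and that of Plod2 by -0.89 between young and rejuvenated old MSCs. With Col3a1 the ratio of P4ha1 differed by 0.59 between young and old MSCs, and those of P4ha1, Plod2 and Lox by 0.37, 1.03 and 0.75 between young and rejuvenated old MSCs. With the replicate block, ratios were tested by exact flips of the sign of the differences between same-numbered libraries. The log2 ratio of Lox to Loxl2 kept its value of -0.17 in co-culture (exact sign-flip adjusted p = 0.0734). That of Loxl3 to Loxl4 kept its value of 0.19 (exact sign-flip adjusted p = 0.141), and neither was called. The other ratios called were called again at an exact sign-flip adjusted p of 0.0384. The smallest p this test can give became 0.0384 after adjustment, so it does not rank these ratios. Leaving out single libraries gave 0.14 to 0.24 for the ratio of Loxl3 to Loxl4. With the block, limma called 5769, 12219 and 12210 genes and 9, 10 and 9 enzymes. Replicate numbers were not taken to pair the libraries, since same-numbered libraries had correlations of deviations of -0.15 to 0.07. Depth limits the least abundant enzyme most, Loxl4, where counting error of 4.35% in the library with fewest of its reads stands beside a spread of 15.4% between the rejuvenated old libraries, the group of that library.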
